A study of Mus musculus with 2 samples.

Results

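The broad KAT8 peaks are the widest stretches of KAT8 signal called in mouse bone marrow-derived macrophages: intervals of 1000 bp or more whose deposited fold over background was under 10. The width limit selected 691 of the 52001 peaks called in untreated cells and 654 of the 44772 peaks called after R848, or 1345 of 96773 in all. A further 34 untreated and 32 R848 peaks were as wide but had a fold of 10 or more and were left out. Members were chosen by width and selected on fold, so both are given below as descriptions. The assay was CUT&Tag: a transposase is tethered to the antibody-bound protein and inserts adapters into the DNA beside it. The macrophages were primary cells from wild-type mice, grown from bone marrow in 20 ng/ml of recombinant M-CSF. They were left untreated or were given R848, a synthetic agonist of Toll-like receptor 7, at 100 ng/ml for 2 h. There was 1 library per group, so no difference between the groups has a replicate check and none was tested. Intervals in brackets are 95% exact (Clopper-Pearson) binomial intervals and cover counting error only. The number of animals behind each library is not given in the sources used here.

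KAT8, also called MOF, is a histone acetyltransferase of the MYST family that is best known for acetylating lysine 16 of histone H4. It works in the MSL complex, known for its part in fly dosage compensation, and in the NSL complex, which binds the promoters of many housekeeping genes. Most mammalian promoters of that kind lie in CpG islands, stretches of DNA rich in the unmethylated dinucleotide CG. R848 signals in macrophages through MYD88 to NF-kB, MAP kinases and interferon regulatory factors.

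The CpG content of these promoters can be read from the letters of 4 of them, shown because each has its transcript start inside a broad peak. The sequences are RefSeq's (GRCm38.p6, the assembly of mm10), run 5′ to 3′ on the gene's strand from 250 bases before to 50 bases after the start, and have each CG in capitals. Larp1 (chr11:58008814-58009113, + strand) encodes an RNA-binding protein that controls translation of ribosomal protein mRNAs, and its start lay in a broad peak in both lists. Zbtb14 (chr17:69382925-69383224, + strand), a zinc finger transcription factor gene, was also broad in both. Nfkbia (chr12:55492598-55492897, - strand) encodes IκBα, the inhibitor of NF-kB, and was broad in both. Irf1 (chr11:53769764-53770063, + strand), an interferon regulatory factor gene, was broad after R848 alone. The promoters of Nfkbia and Irf1 were picked after their values had been seen.
Larp1: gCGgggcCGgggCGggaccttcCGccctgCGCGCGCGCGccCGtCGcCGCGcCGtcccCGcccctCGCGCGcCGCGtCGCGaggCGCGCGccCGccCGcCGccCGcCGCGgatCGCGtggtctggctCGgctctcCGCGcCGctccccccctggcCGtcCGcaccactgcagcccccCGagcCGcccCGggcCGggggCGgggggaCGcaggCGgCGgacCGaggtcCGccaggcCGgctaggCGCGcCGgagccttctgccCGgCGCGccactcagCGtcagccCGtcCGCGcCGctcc
Zbtb14: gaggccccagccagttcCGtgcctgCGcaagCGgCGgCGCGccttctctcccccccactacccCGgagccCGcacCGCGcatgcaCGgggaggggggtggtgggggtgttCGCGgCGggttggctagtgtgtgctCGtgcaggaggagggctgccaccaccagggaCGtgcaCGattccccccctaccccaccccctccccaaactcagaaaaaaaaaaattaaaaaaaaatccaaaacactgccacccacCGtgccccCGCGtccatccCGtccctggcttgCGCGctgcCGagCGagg
Nfkbia: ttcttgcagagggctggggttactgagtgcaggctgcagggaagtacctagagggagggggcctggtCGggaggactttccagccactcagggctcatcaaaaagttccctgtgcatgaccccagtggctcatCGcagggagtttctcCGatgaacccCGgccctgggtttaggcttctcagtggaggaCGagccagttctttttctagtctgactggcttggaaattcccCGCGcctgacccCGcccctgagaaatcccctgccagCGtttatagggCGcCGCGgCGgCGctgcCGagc
Irf1: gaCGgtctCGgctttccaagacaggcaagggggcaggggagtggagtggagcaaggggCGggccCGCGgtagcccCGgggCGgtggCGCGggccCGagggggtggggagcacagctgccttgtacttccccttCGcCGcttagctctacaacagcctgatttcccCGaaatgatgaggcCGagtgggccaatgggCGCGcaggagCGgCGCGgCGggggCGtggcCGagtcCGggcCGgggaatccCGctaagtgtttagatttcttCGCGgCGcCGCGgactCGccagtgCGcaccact
These 300 bases hold 61 CpGs in Larp1, 25 in Zbtb14, 15 in Nfkbia and 32 in Irf1. The ratio of CpGs observed to those the base composition would give was 1.13, 0.763, 0.539 and 0.912, in the same order. The Nfkbia promoter is thus the one of the 4 under the usual CpG island limit of 0.6. It also holds a κB motif (GGG, any 2 bases, then TTTCC) on 1 of its strands. The letters TATAAA, searched for as the TATA box, occur in it only on the strand opposite the gene's and after the start. That match is one of letters and does not have the place or direction of a TATA box.

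Most of the broad peaks were little wider than the limit. In the untreated list the median width was 1149 bp, the quartiles were 1065.5 and 1308.5 bp, and the widest was 4175 bp. In the R848 list the median was 1169.5 bp, with quartiles of 1066 and 1329 bp and a widest peak of 4190 bp. The median of all peaks was 281 bp in both lists. The limit cut a continuous range. The 3 untreated peaks just under it were all 999 bp wide, among them the one at 4931408C20Rik, which spanned 1581 bp after R848. The untreated peaks just inside it were 1000 bp wide and lay at Kdm7a, near Azin1 and near Mmut. In the R848 list the nearest peaks under it were 999 bp wide, 1 of them at Hnrnpf, and the nearest inside it were 1000 or 1001 bp wide, 1 of them inside Ywhaz. At the fold limit, Larp1 entered with a fold of 9.75 in untreated cells, and Thap1 was left out at 10.02. After R848, Srsf4 entered at 9.76 and Thap1 at 9.69, and Pogz was left out at 10.05.

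Wide peaks were also strong ones by the authors' values. The median fold was 4.34 for untreated and 4.45 for R848 broad peaks, against 2.75 and 3.04 over all peaks. A q-value of 0.05 or less was met by 97.4% of untreated and 97.9% of R848 broad peaks, against 36.3% and 41.1% of all peaks. The median pileup at the summit, solved from the deposited fold and p-value, was 21 fragments in untreated and 19 in R848 broad peaks. Width, fold and p-value are read from the same pileup, so these are not separate observations. The lowest local background was 3.37 fragments untreated and 2.62 after R848, a ratio of 1.29. By that measure the untreated library was the deeper, and its part in the widths compared below was not tested.

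Nearly every broad peak was seen in both libraries, mostly as a narrower interval in the other one. Of the untreated broad peaks, 674 of 691 (97.5%, 96.1 to 98.6) overlapped an R848 peak by 1 bp or more, against 31% of all untreated peaks. Of the R848 broad peaks, 646 of 654 (98.8%, 97.6 to 99.5) overlapped an untreated peak, against 35.8% of all R848 peaks. Overlap also rose with fold. At fold 6 to 10, 99.1% of narrower untreated peaks and 99.0% of narrower R848 peaks were overlapped, against 100% of broad peaks in both lists. At fold 3 to 4 it was 44.0% and 38.5% of narrower peaks, against 96.8% and 96.7% of broad ones. A wider interval has more room for an overlap, and a closer match of the summits, within 250 bp, was met by 65.7% and 66.5% of broad peaks. The widest overlapping peak had a median of 937.5 bp for the untreated broad peaks and 958.5 bp for the R848 ones. It reached 1000 bp in 295 (42.7%) and 295 (45.1%) cases, and was under 500 bp in 92 (13.3%) and 70 (10.7%). The median ratio of its width to that of the broad peak was 0.803 and 0.810, against 0.992 and 1.03 over all overlapping peaks of the lists. These ratios below 1 appear in both directions of the comparison, as choosing peaks for their width in 1 list entails. A pair of peaks or more in the other list fell under 138 (20.0%) untreated and 135 (20.6%) R848 broad peaks, against 0.798% and 1.05% of all peaks. In such cases 1 interval in one library was called as separate intervals in the other.

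**Figure D1:**
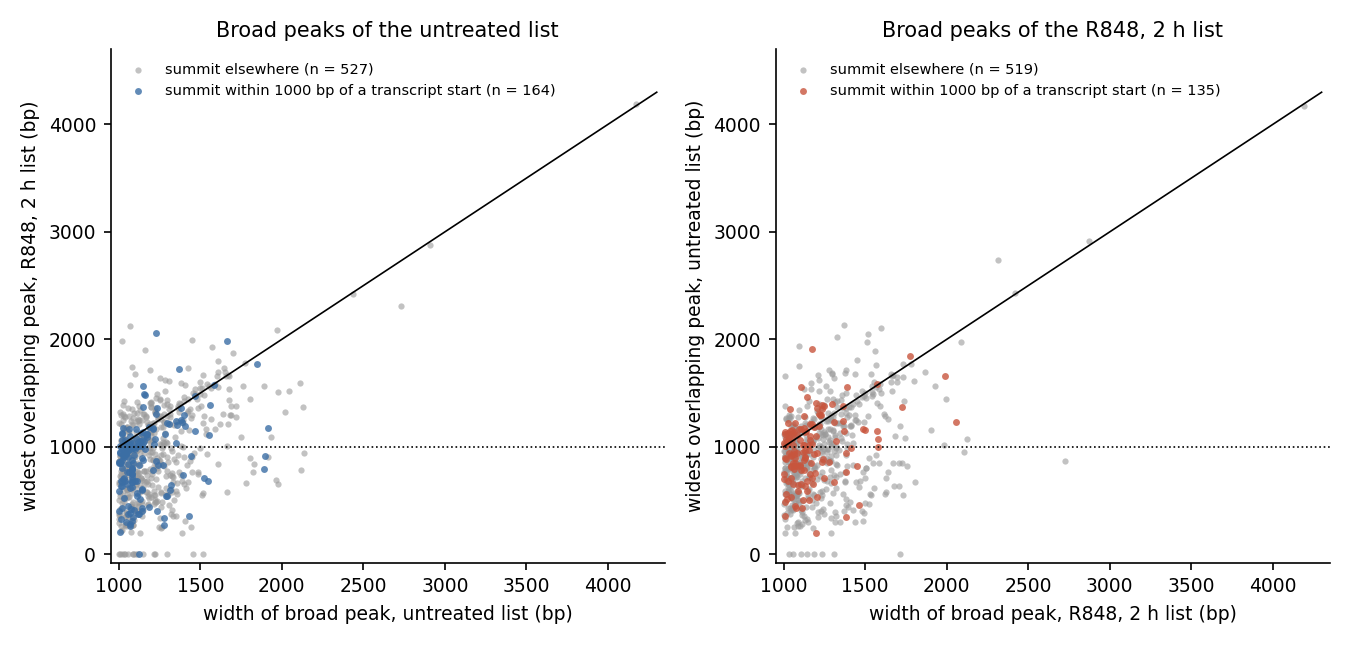
Width of each broad peak (x axis, bp) against the widest overlapping peak of the other list (y axis, bp; 0 where none overlaps), for the 691 untreated (left) and 654 R848 (right) broad peaks. Coloured points have the summit within 1000 bp of a transcript start, the diagonal marks equal width and the dotted line 1000 bp; most points lie under the diagonal in both panels, with medians of 937.5 and 958.5 bp.

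Joined by overlap, the broad peaks formed 1056 loci. Of these, 289 were broad in both libraries, 402 in the untreated library alone and 365 in the R848 library alone. In the 289 shared loci the median width was 1229 bp untreated and 1249 bp after R848, the median difference between the 2 widths was 109 bp, and 217 loci (75.1%) had widths within 1.2-fold of each other. At transcript starts, 44 of 63 shared loci were wider in the untreated list, 18 were wider after R848 and 1 was equal. Away from starts, 107 were wider in the untreated list and 119 after R848.

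By place, transcript starts took a larger share of the broad peaks than of all peaks. A summit within 1000 bp of a start was found in 164 untreated broad peaks (23.7%, 20.6 to 27.1), against 10.3% of all untreated peaks. After R848 it was found in 135 (20.6%, 17.6 to 23.9), against 10%. Summits inside protein-coding genes made up 188 (27.2%) and 176 (26.9%) of the broad peaks, and summits outside genes 289 (41.8%) and 287 (43.9%). Over all peaks, 30.1% and 30.9% were inside protein-coding genes and 48.9% and 48.6% outside genes. At a known gene 3′ end lay 3 broad peaks in each list (0.434% untreated, 0.0896 to 1.26, and 0.459% after R848, 0.0947 to 1.33), against 0.808% and 0.911% of all peaks. With each list limited to its peaks of −log10 q of at least 10, the share of broad peaks at starts was 45.1% and 48.0%. The share over all peaks of that strength was not taken.

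**Figure D2:**
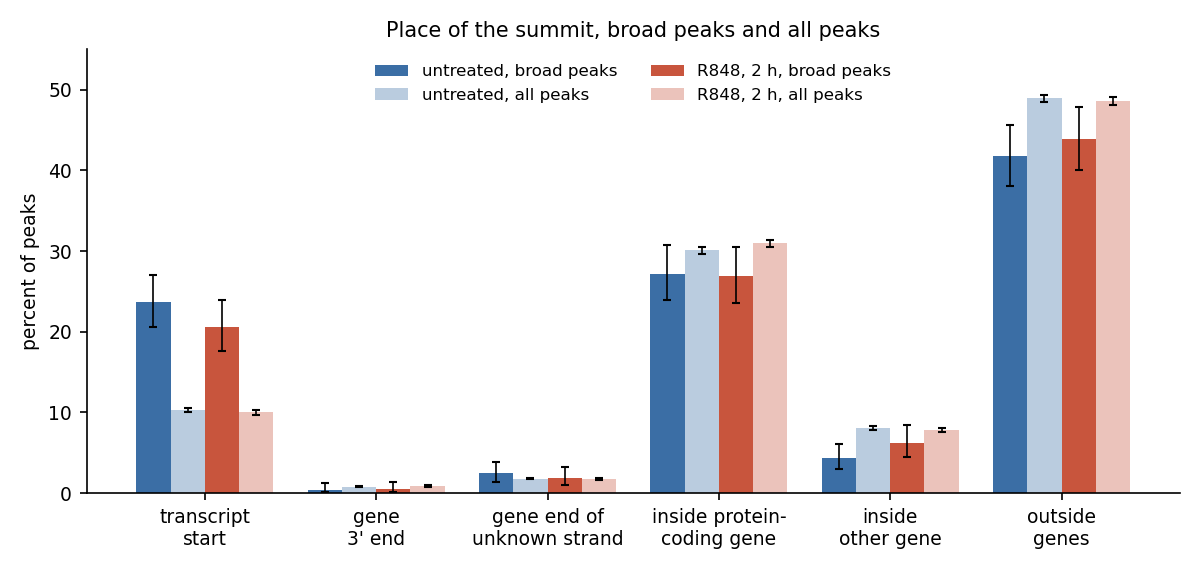
Percent of peaks (y axis) whose summit fell in each place (x axis), for broad peaks (solid bars) and all peaks (pale bars) of the untreated (blue) and R848 (red) lists, with exact 95% binomial intervals. Transcript starts hold 23.7% and 20.6% of broad peaks against 10.3% and 10% of all peaks.

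Broad peaks at starts were stronger, and slightly narrower, than broad peaks elsewhere. Their median fold was 5.59 untreated and 5.78 after R848, against 4.12 and 4.27 elsewhere. Their median width was 1105.5 and 1125 bp, against 1182 and 1192 bp elsewhere. Set against narrower peaks of the same fold, the share at starts was not higher throughout. Among untreated peaks of fold 4 to 5, 14.7% (10.1 to 20.3) of the broad ones were at starts and 24.4% (22.7 to 26.1) of the narrower ones. At fold 6 to 10 the order was the other way, with 62.3% (52.7 to 71.2) of broad and 48.2% (43.9 to 52.6) of narrower peaks at starts. The R848 list gave 12.1% (8.05 to 17.2) against 21.8% (20.3 to 23.3) at fold 4 to 5, and 58.2% (47.4 to 68.5) against 39.9% (35.9 to 44.0) at fold 6 to 10. The intervals of broad and narrower peaks did not overlap at fold 4 to 5 in either list, nor at 6 to 10.

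**Figure D3:**
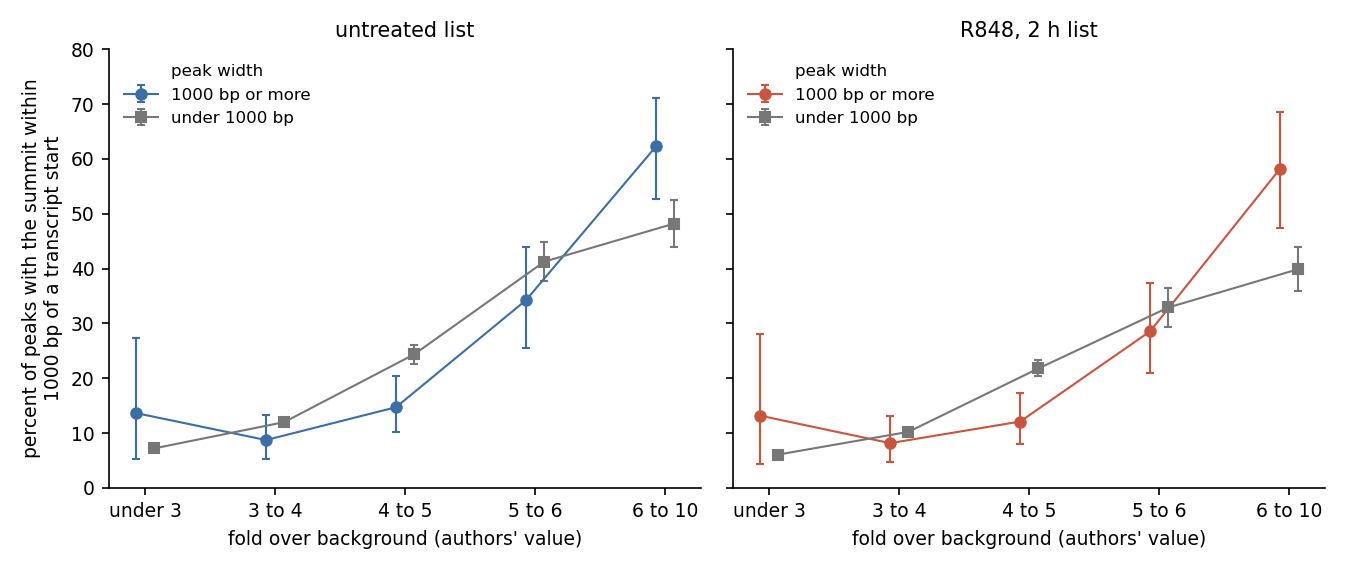
Percent of peaks with the summit within 1000 bp of a transcript start (y axis) by the authors' fold over background (x axis), for peaks of 1000 bp or more (circles) and under 1000 bp (squares) in the untreated (left) and R848 (right) lists, with exact 95% binomial intervals. Broad peaks lie under narrower ones at fold 4 to 5 and above them at fold 6 to 10.

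The broad peaks at starts reached to both sides of the start. In all, 159 untreated and 129 R848 peaks had a start of known strand within 1000 bp of the summit. Of these, 40 (25.2%, 18.6 to 32.6) and 38 (29.5%, 21.8 to 38.1) had starts on both strands in that window. The share was 18.1% and 18.4% for narrower peaks, with the same window around the summit. The peak itself need not cover both starts. Whether the starts point away from each other, as at a bidirectional promoter, was not checked. Other peaks had all starts in that window on 1 strand. Where such a peak held the nearest start, the untreated ones ran a median of 562 bp upstream and 527.5 bp downstream of it. The R848 peaks ran 506.5 bp upstream and 647.5 bp downstream. The longer arm was downstream in 50 of 110 in untreated cells (45.5%, 35.9 to 55.2) and in 52 of 86 after R848 (60.5%, 49.3 to 70.8). With 1 library per group, these shares are given side by side and not compared.

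Promoters under broad peaks were denser in CpG than those under narrower peaks. Promoters of all gene types were taken. Start sites inside a broad peak belonged to 230 promoters of 189 genes in the untreated list and 188 promoters of 160 genes in the R848 list. The median CpG ratio was 0.927 in both. It was 0.839 and 0.846 for promoters whose start lay inside a narrower peak. Over the RefSeq table it was 0.384 for all promoters and 0.567 for the protein-coding ones. Median GC content was 68.2% and 68.3%, against 65.0% and 65.3% under narrower peaks. A CpG ratio of 0.6 or more was reached by 93.5% (89.5 to 96.3) and 91.0% (85.9 to 94.6), against 86.6% and 86.9% under narrower peaks. The share was 35.8% of all promoters of the table and 47.7% of the protein-coding ones. The R848 interval includes the share under narrower peaks. Counting all starts within 1000 bp of a broad peak, the shares were 87.8% (83.3 to 91.4) and 82.3% (76.6 to 87.1). The R848 share was then under the 86.9% of starts inside narrower peaks, while the median ratios were 0.905 and 0.894. No set within 1000 bp of a narrower peak was taken, so this wider choice has no matched comparison. The intervals here and for the motifs below count each promoter as independent. Some genes have several promoters, so the intervals may be too narrow. Promoters under broad and narrower peaks were not matched on fold.

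**Figure D4:**
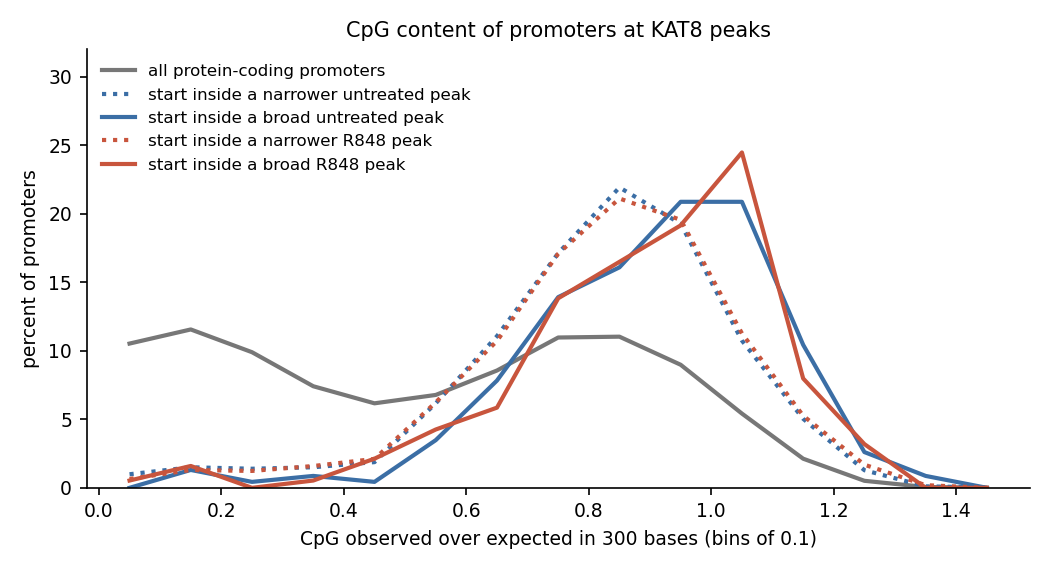
Percent of promoters (y axis) by CpG observed over expected in 300 bases (x axis, bins of 0.1, the last holding all higher values), for promoters with the start inside a broad peak (solid) or a narrower peak (dotted) of the untreated (blue) and R848 (red) lists and for all protein-coding promoters (grey). The solid curves peak further to the right than the dotted ones, with medians of 0.927 against 0.839 and 0.846.

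Short motifs were searched on both strands of the same 300 bases. The GC box GGGCGG, the binding motif of SP and KLF factors, was in 84.8% (79.5 to 89.2) of promoters with the start inside an untreated broad peak and 83.0% (76.8 to 88.1) in the R848 list. It was in 78.4% and 79.9% under narrower peaks and 46.2% of all protein-coding promoters. The ETS motif CCGGAAG went the other way, at 11.3% (7.52 to 16.1) and 12.8% (8.35 to 18.4) under broad peaks and 19.5% and 18.4% under narrower ones, against 11.6% of all protein-coding promoters. The TATA box TATAAA was in 9.13% (5.74 to 13.6) and 7.45% (4.13 to 12.2) under broad peaks and 4.61% and 4.64% under narrower ones, against 12.6% of all. The CCAAT box was alike, at 42.6% and 41.0% against 43.5% and 44.7%. The cAMP response element TGACGTCA was in 0.435% (0.0110 to 2.40) and 2.13% (0.583 to 5.36) under broad peaks and 3.91% and 3.25% under narrower ones. It was in 2.23% of all protein-coding promoters. Its R848 interval includes the share under narrower peaks. NRF1, YY1 and E-box motifs were also searched, and their broad-peak intervals include the shares under narrower peaks in both lists. The κB motif was in 4 of 230 untreated promoters (1.74%, 0.476 to 4.39) and 7 of 188 R848 promoters (3.72%, 1.51 to 7.52), and in 1.60% of all protein-coding promoters. The sets under peaks hold promoters of all gene types. Over all promoters of the table the GC box was in 35.7%, the ETS motif in 8.86% and the TATA box in 13.6%. The CCAAT box was in 37.4% and the κB motif in 1.63%. A motif match is a description of the letters and not of binding. None of these motifs contains another. In the R848 list the broad-peak intervals for the GC box, the ETS motif and the TATA box all include the share under narrower peaks. Counting all starts within 1000 bp of a broad peak, the GC box was in 79.3% (73.9 to 83.9) and 75.5% (69.2 to 81.0), the ETS motif in 9.63% and 11.4%, and the TATA box in 8.89% and 7.27%.

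By gene, a broad peak lay within 1000 bp of an end or start of 227 of 21883 protein-coding genes in untreated cells (1.04%) and of 184 after R848 (0.841%). Both lists shared 84 genes, 143 were in the untreated list alone and 100 in the R848 list alone. All but 1 of the 143 had some R848 peak at a gene end, and all 100 had some untreated peak. Not all of these genes differ by width: Thap1, of 1184 and 1215 bp, entered after R848 alone because its fold was 10.02 untreated and 9.69 after R848. For comparison, 6802 genes had any untreated peak at an end or start and 5790 any R848 peak. How many of them had a peak in both lists was not counted. The counts of broad-peak genes with a peak in the other list thus have no matched share.

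The widest peaks with the summit at a gene end or transcript start reached about the same width in both lists at some genes and differed at others. Larp1 had a peak of 1661 bp untreated and 1987 bp after R848. This peak lay at a transcript start within the gene, with its summit 35554 bp (untreated) and 35550 bp (R848) from the nearest end of Larp1. Zbtb14 had one of 1847 and 1774 bp, and Qrich1, a regulator of the unfolded protein response, one of 1584 and 1571 bp. The peak at Chd7, a chromatin remodeller gene, was 2109 bp wide untreated and 1597 bp after R848, with folds of 8.09 and 7.38. It lay over a raised local background of 14.8 fragments untreated and 12 after R848. Luc7l2, encoding a protein of the U1 splicing particle, had 1561 and 1389 bp. All 5 of these genes were broad in both lists. Ube2d3, a ubiquitin-conjugating enzyme gene, had 1367 bp untreated and 1724 bp after R848. Stx4a, a membrane fusion gene, had 1153 and 1496 bp, and Pacs2, encoding a membrane sorting protein, 1149 and 1570 bp. These 3 were the wider after R848.

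Among the replication-dependent histone genes, the H2ac18 peak (chr3:96245213-96247109) was 1897 bp wide untreated and the H3c15 peak (chr3:96238695-96240587) 1893 bp. After R848 each was covered by 2 peaks, the wider of 914 and 789 bp. The local background at these peaks was 10.4 and 10.3 fragments in the untreated library. This cluster holds near-identical copies, so the assignment of reads to a copy is uncertain.

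The 15 gene lists held 421 genes, of which 18 had a broad peak at an end or start in the untreated list, 10 in the R848 list and 22 in either. Over all protein-coding genes the share was 1.04% and 0.841%. Splicing factors and hnRNPs had the most, with 5 of 30 untreated and 2 after R848. A peak of any width lay at 27 and 23 of these 30 genes. Srsf2, an SR protein gene, was 1315 bp wide untreated and 602 bp after R848, with folds of 5.49 and 5.61. Hnrnph1 was 1140 bp wide untreated and was covered by 2 peaks of 434 and 253 bp after R848. Srsf6 was 1080 bp wide untreated against 804 bp, and Srsf4 was 1057 bp untreated against 1318 bp after R848. The untreated Srsf4 peak is not among the broad peaks because of its fold. Of these 4 genes, 3 were the wider in untreated cells. Hnrnpf had 1040 bp untreated and fell just under the limit after R848, at 999 bp. Hnrnpa1 was broad in both, at 1069 and 1049 bp.

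Enzymes that write or erase histone methylation came next, with 4 of 36 genes untreated and 2 after R848. Setd5 was broad in both, at 1407 and 1196 bp. Nsd1, an H3K36 methyltransferase gene, spanned 1071 bp untreated and 2126 bp after R848, with folds of 5.56 and 5.0. Kmt2e had 1019 bp untreated and 427 bp after R848, and the demethylase gene Kdm7a 1000 and 856 bp. Of the other acetyltransferases and deacetylases, 2 of 26 were broad, both untreated. Kat6b, which encodes another MYST acetyltransferase, had 1228 and 872 bp, and the coactivator gene Ncoa2 1005 and 857 bp. Of the 12 genes of KAT8's own MSL and NSL complexes, 8 had some untreated peak and 7 some R848 peak, and none had a broad one. With 1.04% and 0.841% of all protein-coding genes broad, a list of this size would hold fewer than 1.

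The lists of the Toll-like receptor response are small, so their counts are read against the 1.04% and 0.841% of all protein-coding genes with a broad peak. Among 23 NF-kB family and feedback genes, Nfkbia was broad in both libraries, at 1062 bp untreated and 1024 bp after R848, with folds of 5.51 and 6.11. Nfkb2, encoding the p100 precursor of p52, was 457 bp wide untreated and 1465 bp after R848, while its fold was 4.12 and 3.11. The wider Nfkb2 peak was thus the lower of the pair, and its −log10 q was 1.54. Traf3, an adaptor of receptor signalling, was broad in both at 1050 and 1029 bp, as 1 of 30 receptor pathway genes. Its fold was 5.99 untreated and 7.50 after R848.

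Irf1 was 431 bp wide untreated and 1073 bp after R848, with folds of 3.66 and 4.38, and was the 1 broad gene of 27 interferon-stimulated genes. Mafg, a small Maf factor gene, was the 1 of 26 immediate early genes. It had 1132 bp after R848, over 2 untreated peaks of 634 and 200 bp. Of 28 cytokine and chemokine genes, 6 had some peak in each list and none was broad, where the overall rate would give fewer than 1. Another 3 genes known to be inducible in macrophages were picked after their widths were seen. Tnfaip2 had 509 bp untreated and 1153 bp after R848, with folds of 3.24 and 5.16. Pim1, a kinase gene, had 743 and 1162 bp with folds of 7.97 and 6.87, and H2-K1, an MHC class I gene, 564 and 1014 bp with folds of 3.66 and 4.41. Inducible genes whose peaks did not widen were not counted, so these 3 do not describe such genes as a set. Over all protein-coding genes, 143 were broad in the untreated list alone and 100 in the R848 list alone.

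In the MAP kinase list, 2 of 28 genes were broad in untreated cells and none after R848. Map3k1 had 1318 bp untreated and 642 bp after R848, and Map3k14, which encodes the NF-kB inducing kinase, 1002 and 584 bp. Of 29 cell cycle genes, Cdkn1b, encoding the inhibitor p27, had 1158 and 976 bp and Ccne1, encoding cyclin E1, 1079 and 689 bp. Of 26 macrophage genes, Fcgr3, an Fc receptor gene, was broad in both at 1604 and 1659 bp, over a raised background of 11.1 and 8.68 fragments. The summits lay inside the gene, 5325 bp (untreated) and 5077 bp (R848) from its transcript start. The untreated summit fell in n-TGtcc1, a tRNA gene, so the interval may not belong to Fcgr3. Of the 40 ribosomal protein genes, 21 and 19 had some peak and none a broad one. The 28 autophagy and lysosome genes and the 32 markers of other cell types had none either. At the overall rate of 1.04% and 0.841%, lists of these sizes would hold fewer than 1 such gene.

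**Figure D5:**
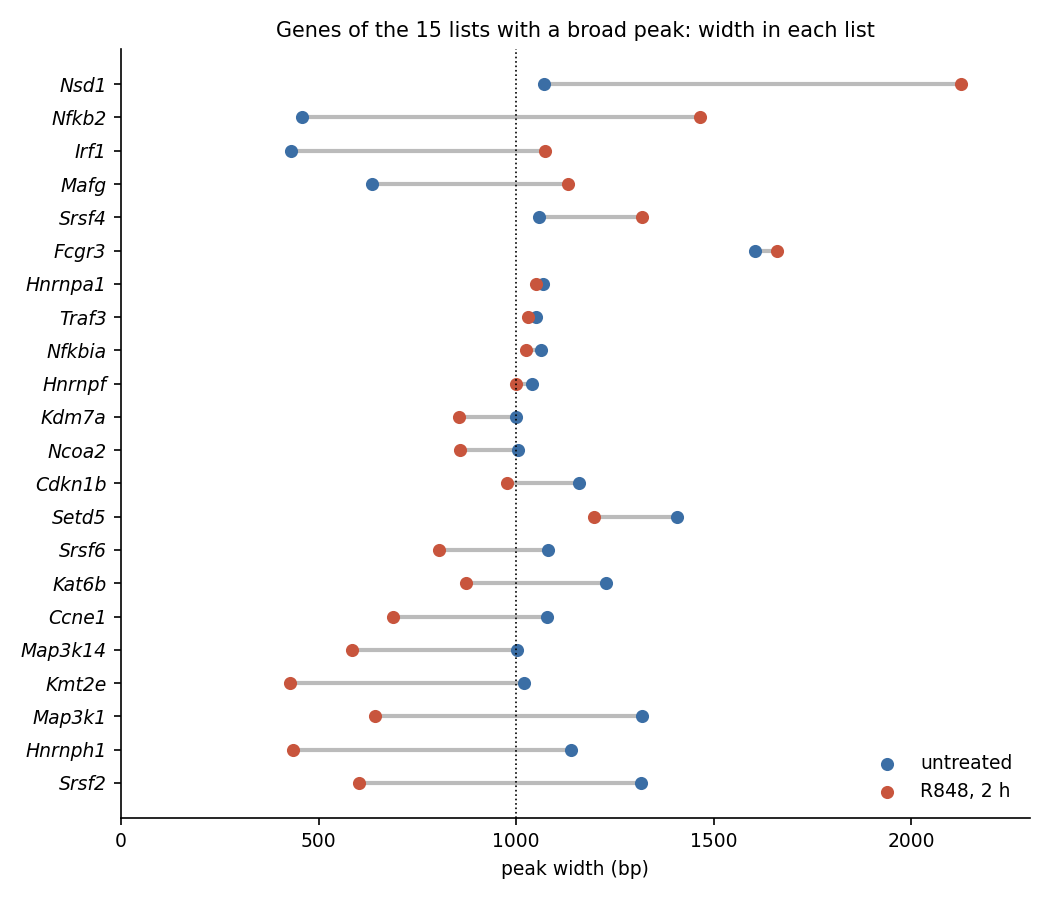
Width of the peak (x axis, bp) in the untreated (blue) and R848 (red) lists at the 22 genes of the 15 lists that had a broad peak at a gene end or start, ordered by the difference; where a list has several peaks the widest overlapping one is shown, and the dotted line marks 1000 bp. Nsd1, Nfkb2, Irf1 and Mafg stand at the top as wider after R848, and Srsf2 and Hnrnph1 at the bottom as wider untreated.

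The broad peaks with no overlapping peak at all numbered 17 in the untreated list and 8 after R848. The widest of the 8 lay downstream of Acod1 (chr14:103047012-103056573, + strand), the gene of the enzyme that makes itaconate and a known target of Toll-like receptor signalling. It spanned 1716 bp (chr14:103057943-103059658) at a fold of 3.24, with −log10 q at 2.77 and its summit 2896 bp past the gene's end. A second R848 peak, of 200 bp, lay inside Acod1. The untreated list had no peak within 10 kb of the gene. The summit pileup of the wide peak was 19 fragments over a background of 5.18, so few fragments stand behind it. The other 7 included intervals inside Snx25 (1308 bp), inside Plcl2 (1104 bp) and near Bola1 (1144 bp).

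Of the 17 untreated broad peaks with no R848 peak, the widest were inside Cdh23 (1518 bp) and Filip1 (1456 bp). Only the one at Ppdpf, of 1126 bp with a fold of 2.98, had its summit at a transcript start. Some broad peaks had only a peak of minimal width in the other list. Galnt10, a glycosyltransferase gene, had 1009 bp untreated and 210 bp after R848, and a peak inside Acer3, a ceramidase gene, had 1390 and 200 bp. In the other direction, Yrdc, a tRNA modification gene, had 200 bp untreated and 1196 bp after R848. A peak inside Chit1, which encodes a macrophage chitinase, had 241 and 1178 bp, with folds of 3.36 and 4.17.

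The very widest intervals lay away from gene ends and some over a raised local background. The widest in both lists was chr17:39843105-39847279, of 4175 bp untreated and 4190 bp after R848. Its pileup was 13081 and 11790 fragments over a background of 5510 and 4934, so the fold was only 2.37 and 2.39. This place in mm10 is known to hold a copy of the 45S ribosomal RNA precursor, of which the genome has many copies. The next, chr1:24613213-24616123, had 2911 and 2874 bp over a background of 139.88 and 154.48 fragments, at a known nuclear copy of mitochondrial DNA. A background of 10 fragments or more was found at 42 untreated (6.08%) and 39 R848 (5.96%) broad peaks, including those in Sp110 and, chosen after their values were seen, in Sfi1 and Duxf3. Reads at multicopy places cannot be assigned to 1 copy, and the widths there are uncertain. The interval inside Stam2, an endosomal sorting gene, spanned 2434 and 2418 bp over backgrounds of 12.5 and 10.9 fragments, with folds of 5.92 and 5.40. The one at Best1 next to Fth1, the ferritin heavy chain gene, spanned 1699 and 1869 bp over 14.4 and 10.8 fragments. Its summits lay inside Best1, and it came within 1000 bp of an end or start of both genes. The one inside Eppk1, the epiplakin gene, spanned 2734 and 2314 bp over 7.98 fragments in the untreated library.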

How the data were processed

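KAT8 CUT&Tag was analysed in 1 untreated and 1 R848-treated macrophage library, grouped by the treatment label. The authors deposited 1 peak list per library, called separately. Bowtie 0.12.8, DiffBind, MACS2 2.2.7.1 and the mm10 build appear in the submitters' processing notes without roles. Settings and use of a control library: not given in the sources used here. Each peak's deposited fold is a ratio over background, its −log10 p-value and −log10 q-value are the authors', and its deposited score was 10 times −log10 p.

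Width was the end minus the start. Overlap meant 1 bp or more and was checked with bedtools 2.31.1; scripts ran in Python 3.11.15 with scipy 1.17.1. Pileup and background were recovered per peak, reading the p-value as a Poisson tail and the fold as pileup over background with 1 added to each. They came out whole within 0.05 for 99.998% and 99.996% of peaks. The files give no read totals. A summit's place followed RefSeq genes (GRCm38.p6) and a RefSeq promoter table, which gave strand for 17491 of 21883 protein-coding genes and holds none on chromosome 18. Gene ends of unknown strand were kept apart. The interval code was tested on simulated peaks.

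The peaks and gene lists were chosen with earlier results of these data known. Named were the 15 widest loci broad in both lists. Per list, the 10 widest at gene ends or transcript starts and the 4 widest elsewhere were named. So were the 5 with the narrowest and up to 8 with no overlapping peak, and those nearest the limits. Up to 4 genes were named per gene list, and other names are marked. Not all of them are printed. Promoters were those with the start inside the peak, a choice made after seeing the data; with starts within 1000 bp of a broad peak the median CpG ratios were 0.905 and 0.894. The alternatives tried were other limits on width, fold and q, other overlap rules and other windows.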

Additional observations from a re-analysis of the deposited data

How the results depend on the processing

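Of 96 alternative values, 59 moved by less than their counting interval, spread or 1.5-fold limit and 37 moved by more. Each pair of values here is untreated, then R848. A width limit of 800 bp gave 1725 and 1563 broad peaks, an overlap of 93.5% and 95.7%, a median partner width of 770 and 800.5 bp, and 35 and 30 list genes. A limit of 1200 bp gave 285 and 295 peaks, partners of 1126.5 and 1124 bp, 15.8% and 13.2% of summits at starts, and 5 and 4 list genes. The widest 1% of peaks gave 425 R848 peaks, partners of 997 and 1031 bp, and 9 and 6 list genes. With each list limited to its peaks of −log10 q of at least 10 there were 182 and 127 broad peaks, of which 65.4% and 87.4% were overlapped. Their partners had medians of 1083 and 1107 bp, 45.1% and 48.0% lay at starts, and there were 7 and 3 list genes. A fold under 7 put 20.5% and 17.1% at starts. Matching by summits within 250 bp gave an overlap of 65.7% and 66.5%. Summing all overlapping peaks gave partners of 1008 and 1036 bp. The cause was not tested for any of these. The promoters' CpG ratio moved by more than its spread under none of the settings run. No paired analysis was possible because each group has 1 library. Without read totals or replicates, a width difference between the lists has no error estimate.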

Other observations

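Broad peaks were a larger share of the peaks on the X chromosome than on the pooled autosomes. On X, the untreated list had 46 broad peaks of 1771 (2.60%, 1.91 to 3.45) and the R848 list 37 of 1464 (2.53%, 1.79 to 3.47). On the autosomes the share was 1.29% (1.19 to 1.40) and 1.43% (1.32 to 1.55). Single autosomes varied, up to 1.76% (1.23 to 2.44) on chromosome 15 untreated and 2.05% (1.36 to 2.97) on chromosome 18 after R848, and these intervals overlap those of X. Only 1 of the X peaks in each list was at a transcript start, and the rest lay inside or outside genes. This pattern was noticed in the data and not tested, and chromosome-wide read depth was not used here.

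Broad peaks outside genes lay a median of 116 kb (untreated) and 103 kb (R848) from the nearest protein-coding gene end, against 81.7 and 82.0 kb for narrower peaks outside genes. In 4.15% and 3.48% of them the nearest gene was an olfactory or vomeronasal receptor gene, against 4.25% and 4.23% for narrower peaks. Broad peaks inside protein-coding genes were in hosts with a median length of 160 and 178 kb, against 156 and 159 kb.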
